A study of Mus musculus with 12 samples.

Results

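Lysosomes are the acid compartments in which macrophages break down engulfed cells, lipoproteins and their own worn organelles. Cathepsins and other proteases cut proteins, glycosidases trim sugar chains, lipid hydrolases work with small activator proteins, and the vacuolar proton pump (V-ATPase) keeps the lumen acid by coupling a cytosolic ATP-cleaving sector, V1, to a proton channel in the membrane, V0. The transcription factors TFEB and TFE3 bind E-box elements near many of these genes, and macrophages are known for high lysosomal content and for switching subunit isoforms of the pump when they differentiate.

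The genes described here were 46 genes of this system, chosen by name with earlier results of these data known. They were 11 cathepsins and other proteases, 9 glycosidases, 5 lipid hydrolases and activator proteins, 6 membrane proteins, 2 transcription factors, and 5 V0, 6 V1 and 2 accessory genes of the V-ATPase. Each matched 1 of the 48526 rows of the gene count table through its Ensembl identifier, and all 46 were among the 12421 genes that had enough counts to test. RNA-seq was done on bone marrow-derived macrophages (BMDMs) of 3 female C57Bl/6J mice. Whole marrow was grown in medium with macrophage colony-stimulating factor at 10 ng/mL and used on day 7, so all groups share this factor. For 16 hr the cells received no agent, Wnt3a at 100 ng/mL, IL-4 at 100 pg/mL or both agents together, with every mouse giving 1 culture to each of these 4 groups (12 samples). The cultures were made from marrow in a dish, and no plaque or tissue macrophages were measured. The comparison asks whether Wnt3a, IL-4 and their combination change the lysosomal genes of these cells.

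The columns headed Wnt3a and Wnt3a+IL4 are not separate measurements. In each mouse, 0 of 48526 rows had a Wnt3a count outside 1 to 2 times the Wnt3a+IL4 count of the same mouse, whereas 6681 to 8625 rows fell outside when the columns of different mice were set against each other. Each pair of columns was therefore resolved into 2 parts that share no reads: the difference (what the Wnt3a column held beyond the combined column) and the remainder (the combined column less that difference). The labels do not say which part is the Wnt3a culture and which is the culture with both agents, and neither was assigned from its values. If the 2 parts are the reads of these 2 cultures, both had Wnt3a under either assignment.

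Short promoter stretches are shown because several members are textbook targets of TFEB and TFE3, and because STAT6, the factor that IL-4 activates, binds a known palindrome. Windows from 250 bases before to 50 after the gene start, in RefSeq on GRCm38.p6, were listed for 38 of the 46 members and searched on both strands for 5 motifs. The 8 members without a window were Ctsb, Ctse, Ctsh, Npc1, Atp6v0d2, Atp6v1b2, Atp6v1c1 and Atp6v1h. The full CLEAR element, the palindrome that TFEB binds, was in 0 of 38 member windows and in 0.37% of the windows of all 27025 genes. Its core TCACGTGA, which contains the E-box CACGTG, was in 6 of 38 (Atp6v0d1, Atp6v1a, Ctsa, Ctsd, Gla and Mcoln1), or 15.8%, against 1.12% of all genes and 2.29% of the 9480 tested genes with a window. The E-box alone was in 13 of 38, or 34.2%, against 8.09% of all genes and 11.9% of tested genes. The STAT6-type palindrome, TTC and GAA with 4 bases between them, was in 2 of 38 (Gm2a and Tfeb), or 5.26%, against 8.01% of all genes and 6.61% of tested genes. The TCF/LEF-type site CTTTGAT was in 2 of 38 (Lamp2 and Npc2), or 5.26%, against 4.29% and 2.97%. In the stretches below, written 5′ to 3′ on the strand of the gene, capitals mark the motif. The first 3 hold the CLEAR core and the last 2 hold the STAT6-type palindrome.
Atp6v0d1, chr8:105566045-105566084, minus strand: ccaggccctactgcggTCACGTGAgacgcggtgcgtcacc
Atp6v1a, chr16:44139368-44139407, minus strand: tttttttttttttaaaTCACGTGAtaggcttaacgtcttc
Gla, chrX:134601177-134601216, minus strand: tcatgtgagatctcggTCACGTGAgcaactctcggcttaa
Gm2a, chr11:55097910-55097951, plus strand: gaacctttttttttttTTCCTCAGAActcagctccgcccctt
Tfeb, chr17:47785494-47785535, plus strand: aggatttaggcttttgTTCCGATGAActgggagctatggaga

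In the GENCODE annotation of the same build, the Gla and Gm2a stretches lay outside the annotated gene, the Atp6v1a and Tfeb stretches lay in an intron, and 3 of the 40 bases of the Atp6v0d1 stretch lay in an exon. A match is a description of the letters and not a measured site. Of the 6 genes with the CLEAR core, Gla rose in both parts, Ctsa rose in the remainder and in the comparison of both parts pooled, Ctsd rose in the pooled comparison alone, and Atp6v0d1, Atp6v1a and Mcoln1 passed the test in none of the 5 comparisons. Of the 2 genes shown with the palindrome, Gm2a rose with IL-4, a call lost without mouse 1, 2 or 3, and Tfeb did not pass that test. The other members raised by IL-4 were Ctsl and Atp6v0a1, whose windows held no palindrome, and Atp6v0d2 and Atp6v1b2, which had no window.

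The 6 untreated and IL-4 samples each held 13342492 to 17113982 counts over all genes. For the difference this total was 14171994 to 17453377, and for the remainder 15707213 to 16998867. The deviation of a library from its group mean followed the GC content of genes, across 9283 genes, with r from -0.64 (remainder, mouse 2) to 0.68 (untreated, mouse 2). Macrophage markers were high in every group: the summed level of 6 of 6 tested genes ran from 9100.01 to 10854.7 CPM, counts in each 1000000 counts of the library, so the cells matched their label. Of the lymphocyte markers, 5 of 6 and of the mast cell and basophil markers 4 of 5 were at 3 counts or fewer in every library, and the lists summed to at most 0.433 and 0.55 CPM. The 6 fibroblast markers, 3 of them tested and Lum at 3 counts or fewer, summed to 5.74 to 29.9 CPM over all libraries. Calls of single macrophage markers, and markers of other cells that moved with the groups, are given beside the results below.

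Together the 46 genes took a large part of all counts: 8.43% ± 0.41 (SD, n = 3 mice) in untreated cells, 9.57% ± 0.55 with IL-4, 8.80% ± 0.31 in the difference and 9.78% ± 0.62 in the remainder. The untreated samples held 7.98%, 8.78% and 8.53% in mice 1, 2 and 3, and the IL-4 samples 10.2%, 9.22% and 9.29%, so these groups did not overlap. The difference held 8.47%, 8.85% and 9.09% and overlapped the untreated samples. The remainder held 10.2%, 9.07% and 10.1% and did not overlap them. Most of this came from 3 transcripts: Ctsb (cathepsin B, a cysteine protease), Ctsd (cathepsin D, an aspartic protease) and Psap (prosaposin, the precursor of the saposins that activate sphingolipid hydrolases) made up 5.63% of all counts in untreated cells and 6.60% in the remainder.

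**Figure D1:**
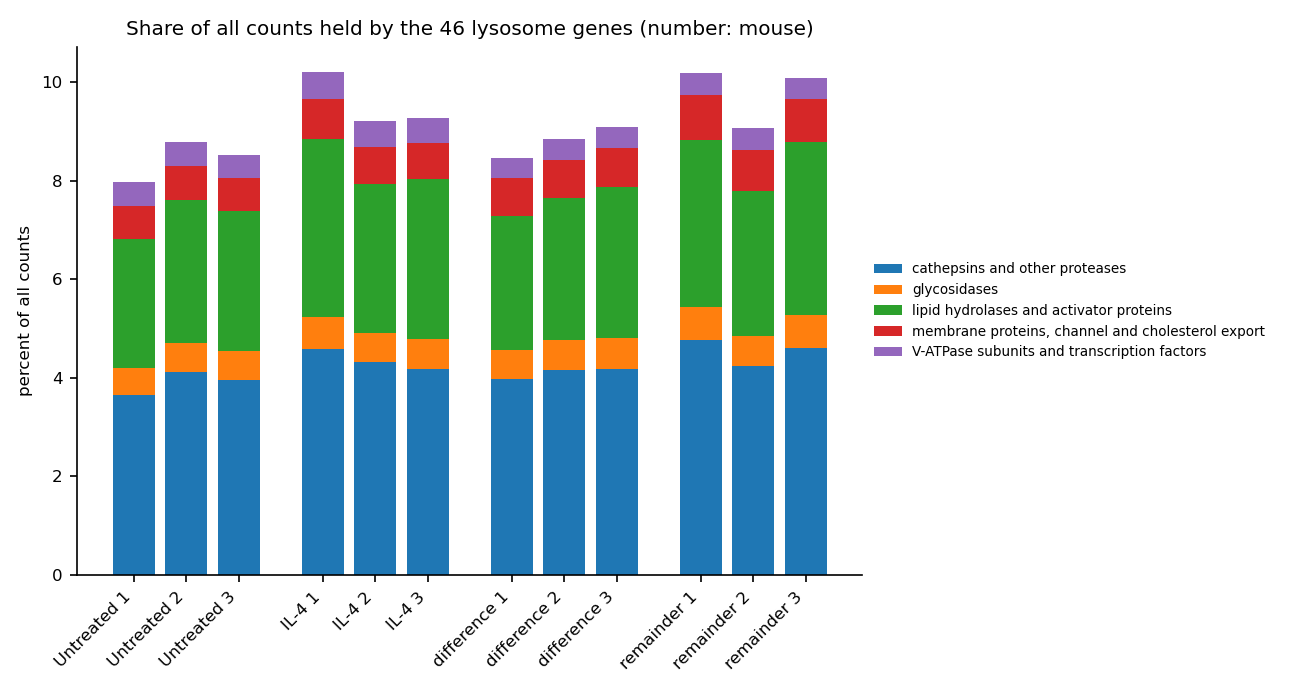
Stacked bars give the percent of all counts in each of the 12 samples (x axis, by group and mouse) that fell in the 46 genes, split by role. The untreated samples reached 7.98% to 8.78%, all below the IL-4 samples at 9.22% to 10.2%, and proteases took the largest piece in untreated cells (mean 3.91%).

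Per kilobase of exon, Psap had the second highest mean level of all tested genes in untreated cells (8434.5 CPM per kb), Ctsd ranked 5 and Ctsb ranked 8. Ctsz (cathepsin Z, a carboxypeptidase) stood at rank 23 and at rank 11 in the remainder. At the other end, Ctsk (cathepsin K, the collagen-cutting protease of osteoclasts) stood at rank 6653 in untreated cells and at rank 3354 in the remainder. Ctse (cathepsin E, an endosomal aspartic protease) was the lowest member at rank 8385, with 70 to 114 counts a library.

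IL-4 against untreated cells called 3.4% of all genes tested, 2.31% higher and 1.09% lower. The difference against untreated cells called 23.2% (11.8% higher, 11.4% lower), and the remainder 25.3% (13.6% higher, 11.7% lower). Of the 46 members, IL-4 raised 5 and lowered 0 (10.9%). In the difference 13 were higher and 6 lower (41.3%), and in the remainder 17 were higher and 1 lower (39.1%). The remainder against the difference called 2 members higher and 1 lower (6.52%), against 5.25% of all genes (2.87% higher, 2.38% lower), so this share was near the background. The median log2 fold change of the members was 0.12 with IL-4, 0.08 for the difference and 0.20 for the remainder. Over all genes it was -0.00, -0.01 and -0.02. Without mouse 3, 1, 8 and 9 members were called in the comparisons with untreated cells, and 1 between the parts. Without mouse 2, 3 members were called with IL-4, 12 in the difference and 6 between the parts, and without the remainder library of mouse 2 alone 10 were called between the parts. In the difference the count was 11 without the difference library of mouse 2 or mouse 3, and to 12 without the untreated library of mouse 1. For IL-4, the count was 3 without the untreated library of mouse 3 or the IL-4 library of mouse 1 or mouse 2. Scaled by library totals alone, the median of all genes moved to -0.10 for the difference and -0.13 for the remainder. The calls were then 11 higher and 8 lower, and 17 higher and 5 lower.

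Of the 25 hydrolases and activators, 11 rose and 2 fell in the difference (52.0% called), 13 rose and 1 fell in the remainder (56.0%), and 2 rose with IL-4 (8%). The median log2 fold changes of these 25 genes were 0.27, 0.36 and 0.13. The shares of all genes include genes of low level and were not matched to these abundant genes. Of the 13 V-ATPase genes, 0 rose and 3 fell in the difference, a share of 23.1% that was at the 23.2% of all genes. In the remainder 1 rose and 0 fell, or 7.69% against 25.3% of all genes. With IL-4 3 rose, or 23.1% against 3.4%, and this count was 2 with the mouse as a block and 1 without mouse 3. There were 11 members higher in both parts: the proteases Ctsc, Ctsh, Ctsk, Ctsl and Ctsz, the glycosidases Gla, Glb1 and Gusb, the activator Gm2a, and the membrane and lumen proteins Lamp1 and Npc2. Lipa was lower in both, and Atp6v0d2 was lower in the difference and higher in the remainder. The 2 parts were set against the same untreated samples, so a call in both is not 2 independent results. The share of all tested genes that rose in both parts was not counted, so these 11 have no background beside them. In bulk RNA, fewer cells of a type and less RNA per cell cannot be told apart.

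**Figure D2:**
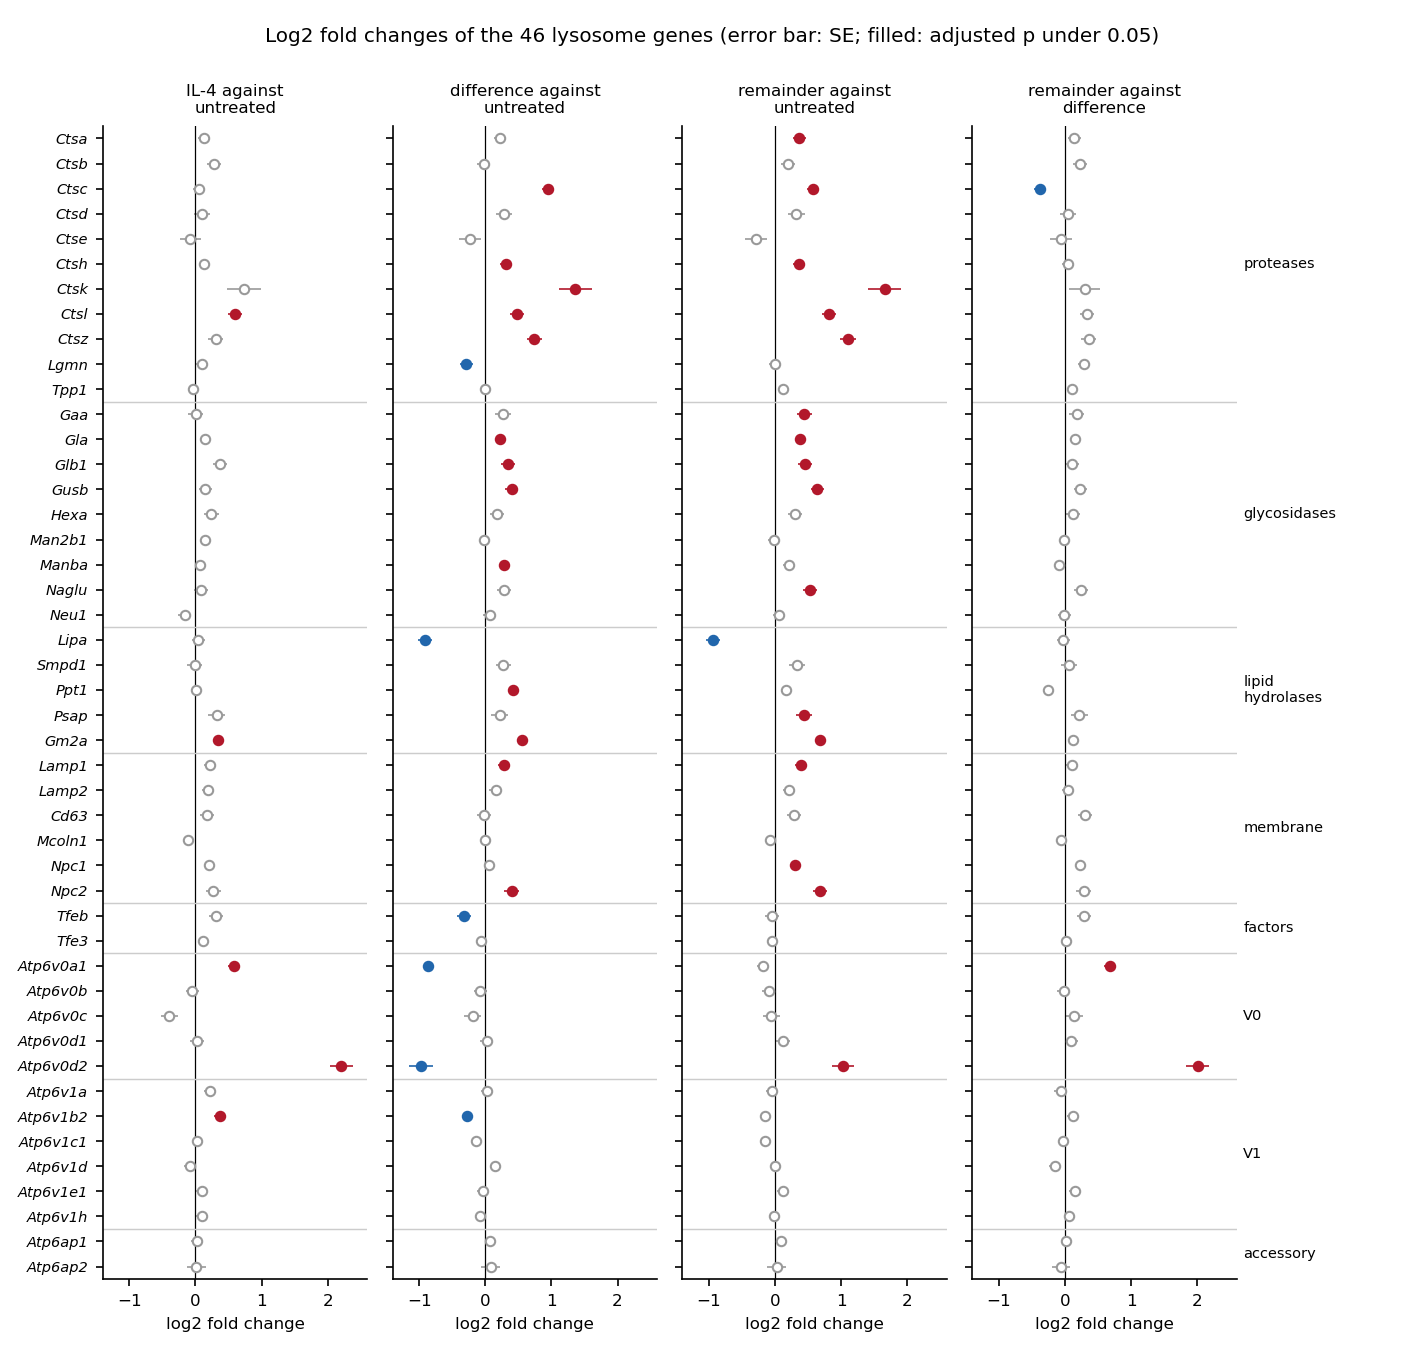
Each point is the log2 fold change (x axis) of 1 of the 46 genes, grouped by role, with its standard error as a line, in 4 panels for IL-4, the difference and the remainder against untreated cells and for the remainder against the difference. Filled points passed an adjusted p of 0.05 (red higher, blue lower); with IL-4 5 are filled, all higher, and in the difference 13 are filled red and 6 blue, with 3 of the 13 V-ATPase genes (23.1%, against 23.2% of all genes) among the blue.

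Among the 11 proteases, 1 rose with IL-4 (9.09%, against 3.4% of all genes). In the difference 5 rose and 1 fell (54.5%, against 23.2%), and in the remainder 6 rose and 0 fell (54.5%, against 25.3%). The median log2 fold changes of these proteases were 0.13, 0.28 and 0.36. Ctsz (GRCm38 chr2:174427493-174439039, minus strand) gave 1551, 1860.1 and 1677 CPM in untreated cells of mice 1, 2 and 3, 2393, 1967 and 1925 CPM with IL-4, 2724, 2936 and 2862 CPM in the difference, and 4202, 3137 and 3599.7 CPM in the remainder. Every sample of both parts lay above every untreated and IL-4 sample. Ctsz thus had a log2 fold change of 0.74 ± 0.12 (SE, n = 3) in the difference (edgeR adjusted p = 0.000376, 1.68-fold) and 1.10 ± 0.12 in the remainder (edgeR adjusted p = 9.35e-06, 2.15-fold), and with IL-4 it was 0.31 (edgeR adjusted p = 0.226).

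Ctsk (chr3:95499256-95509362, plus strand) was low in untreated cells, at 7.79, 4.89 and 5.27 CPM, and reached 13.5, 9.97 and 6.35 CPM with IL-4, 15.6, 16.2 and 14.6 CPM in the difference and 23.5, 14.9 and 18.7 CPM in the remainder. Both parts were above all untreated samples, and the IL-4 samples overlapped the untreated ones. Its log2 fold change was 1.36 ± 0.25 in the difference (edgeR adjusted p = 0.00116, 2.57-fold) and 1.66 ± 0.25 in the remainder (edgeR adjusted p = 0.000184, 3.16-fold). With IL-4 it was 0.73 (edgeR adjusted p = 0.164). Its counts were 76 to 379 a library. The summed level of 8 osteoclast markers ran from 120 to 149 CPM in untreated cells and from 241 to 269 CPM in the remainder, but Acp5, a hydrolase that is also one of these markers, went from 23.4 to 35.1 CPM to 112 to 153 CPM. The part of osteoclast-like cells in the result was not tested.

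Ctsc (cathepsin C, which activates granule serine proteases; chr7:88278085-88310888, plus strand) gave 301, 267 and 325 CPM in untreated cells and 326, 279 and 325 CPM with IL-4. It gave 605, 545 and 574 CPM in the difference and 433, 478 and 420.1 CPM in the remainder. The groups ranked difference above remainder, with untreated and IL-4 samples below both and overlapping each other. Its log2 fold change was 0.95 ± 0.09 in the difference (edgeR adjusted p = 4.76e-06) and 0.57 ± 0.09 in the remainder (edgeR adjusted p = 0.000361). The remainder lay below the difference by -0.37 ± 0.09 (edgeR adjusted p = 0.0308), a call that was lost without mouse 1 (adjusted p = 0.234) or mouse 3 (0.432), without any 1 of 5 single libraries (0.0582 to 0.13), and after a GC correction chosen after the data were seen (0.237). Those 5 were the 3 libraries of the difference and the remainder libraries of mice 1 and 3.

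Ctsl (cathepsin L, a broad endopeptidase) rose in all 3 comparisons. It gave 728, 769.9 and 710.3 CPM in untreated cells, 1164, 1215 and 959 CPM with IL-4, 1077, 1014 and 983 CPM in the difference and 1466, 1236 and 1177 CPM in the remainder. No treated sample overlapped the untreated ones. This came to log2 fold changes of 0.60 ± 0.10 with IL-4 (edgeR adjusted p = 0.00397, and 0.0571 without mouse 3), 0.48 ± 0.10 in the difference (0.0039) and 0.81 ± 0.10 in the remainder (4.48e-05). Its exons share 6.09% of their bases with other genes on the same strand and 26.8% with genes on the other strand, so reads there are uncertain if strand was not used in counting.

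Ctsb, the most abundant protease, gave 16314, 19781 and 18886 CPM in untreated cells, 23547, 22709 and 20498 CPM with IL-4, 16911, 18511 and 18572 CPM in the difference and 21678, 19849 and 21622 CPM in the remainder. Its IL-4 and remainder samples lay above all untreated samples, but the log2 fold changes of 0.28 and 0.20 did not pass (edgeR adjusted p = 0.195 and 0.173). Ctsh (cathepsin H, an aminopeptidase) came out higher, at 0.31 for the difference and 0.36 for the remainder (edgeR adjusted p = 0.0201 and 0.00756). Lgmn (legumain, the asparaginyl endopeptidase that processes cathepsins) was lower by -0.29 in the difference (edgeR adjusted p = 0.041) and stood at 0.00 in the remainder. Ctsa (cathepsin A, which protects β-galactosidase and neuraminidase) was higher by 0.37 in the remainder (edgeR adjusted p = 0.0106). The calls of Ctsh, Lgmn and Ctsa were each lost without mouse 3, at adjusted p of 0.161 and 0.0708 for Ctsh, 0.249 for Lgmn and 0.169 for Ctsa. Without mouse 2, Ctsh in the difference came to 0.089 and Lgmn to 0.179, and without mouse 1 Ctsa came to 0.124. Single libraries whose loss ended the Ctsh call in the difference were untreated mouse 1 and difference mice 2 and 3 (0.0616 to 0.0703), and those for Lgmn were untreated mice 2 and 3, IL-4 mouse 2, remainder mouse 3 and all 3 of the difference (0.0546 to 0.126). The mouse as a block also ended the Lgmn call (0.0612).

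Ctsd came to log2 fold changes of 0.28 and 0.32 in the difference and the remainder (edgeR adjusted p = 0.119 and 0.0673), and 34.4% of its exon bases lie in an overlapping gene on the same strand. Ctse stood at -0.23 and -0.29 (0.336 and 0.212). Tpp1 (tripeptidyl peptidase) stood at -0.00 and 0.11 (0.996 and 0.248).

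**Figure D3:**
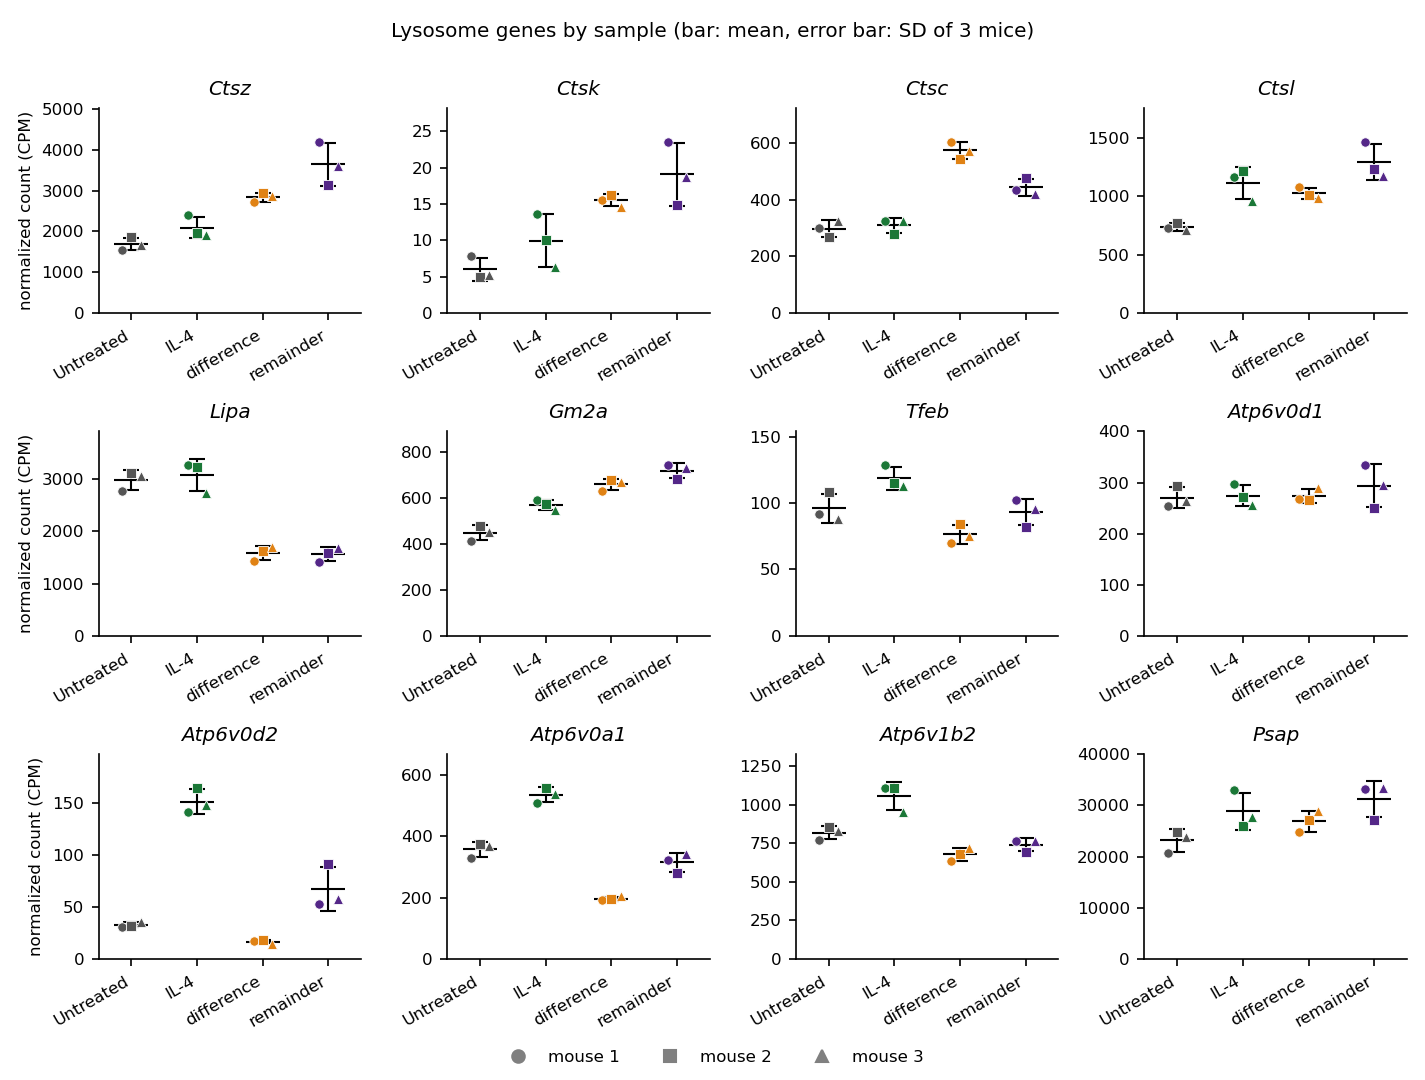
Level in CPM (y axis of each panel, starting at 0) of 12 members in every sample, by group on the x axis, with the mouse as point shape, the mean as a bar and the SD as error bar (n = 3). Ctsz, Ctsk and Ctsc lie higher in both parts than in untreated cells and Lipa lower, whereas Atp6v0d2 is highest with IL-4 (142 to 165 CPM) and lowest in the difference (14.8 to 18.3 CPM).

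Of the 9 glycosidases, 0 were called with IL-4 by edgeR's adjusted p. In the difference 4 rose and 0 fell (44.4%, against 23.2% of all genes), and in the remainder 5 rose and 0 fell (55.6%, against 25.3%). The median log2 fold changes of the glycosidases were 0.27 and 0.38. Gusb (β-glucuronidase) gave 841, 988 and 999 CPM in untreated cells, 1214, 1260.1 and 1262 CPM in the difference and 1587, 1275 and 1532 CPM in the remainder. Both parts lay above all untreated samples, by a log2 fold change of 0.40 (edgeR adjusted p = 0.00868, and 0.1 without mouse 3) and of 0.64 ± 0.10 (0.000259). Naglu (which removes N-acetylglucosamine from heparan sulfate) was higher by 0.53 ± 0.11 in the remainder (edgeR adjusted p = 0.00217, and 0.0774 without mouse 3).

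Glb1 (β-galactosidase) came out higher, at 0.34 for the difference and 0.45 for the remainder (edgeR adjusted p = 0.0343 and 0.00672), and Gla (α-galactosidase A) by 0.22 and 0.38 (0.0422 and 0.00149). Gaa (acid α-glucosidase, which degrades glycogen) was higher by 0.44 in the remainder (0.0124), and Manba (β-mannosidase) by 0.28 in the difference (0.0164). Without mouse 3 the adjusted p of these calls came to 0.151 and 0.0872 for Glb1, 0.261 and 0.0635 for Gla, 0.136 for Gaa and 0.155 for Manba. In the difference, Glb1 also missed without mouse 1 (0.127) or mouse 2 (0.0577), Gla without mouse 1 (0.153) or mouse 2 (0.113), and Manba without mouse 2 (0.162), and the Gla call ended with the mouse as a block (0.0684). Gaa in the remainder missed without mouse 1 (0.101), without untreated mouse 1 (0.0558) and without remainder mouse 3 (0.0539). Single libraries that ended calls in the difference were untreated mice 1 and 2 and all 3 of the difference for Glb1 (0.0515 to 0.134), all untreated and difference libraries and IL-4 mouse 2 for Gla (0.0591 to 0.118), and untreated mice 1 and 2 and difference mice 2 and 3 for Manba (0.0505 to 0.0637).

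Hexa (the α-subunit of β-hexosaminidase), the most abundant glycosidase, gave 1950.2, 2369 and 2278 CPM in untreated cells, 2955, 2428 and 2417 CPM with IL-4, 2333, 2540.4 and 2602 CPM in the difference and 2892, 2458 and 2760.3 CPM in the remainder. Its IL-4 and remainder samples lay just above the untreated ones and none of its comparisons passed, the nearest being 0.30 in the remainder (edgeR adjusted p = 0.0552). Man2b1 (α-mannosidase) and Neu1 (neuraminidase) stayed between -0.16 and 0.15 in the 3 comparisons with untreated cells, none called.

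Of the 5 lipid hydrolases and activators, 1 rose with IL-4 (20.0%, against 3.4% of all genes). In each part 2 rose and 1 fell (60.0%, against 23.2% and 25.3%). Lipa (lysosomal acid lipase, which frees cholesterol and fatty acids from lipoprotein esters; chr19:34492318-34527474, minus strand) gave 2766, 3117 and 3051 CPM in untreated cells and 3271, 3224 and 2725 CPM with IL-4. It gave 1434, 1626 and 1694 CPM in the difference and 1412, 1585 and 1679 CPM in the remainder. The 6 samples of the 2 parts all lay below the 6 samples without Wnt3a, and the parts overlapped each other. On the log2 scale Lipa changed by -0.91 ± 0.10 in the difference (edgeR adjusted p = 1.71e-05, 1.88-fold lower) and -0.93 ± 0.10 in the remainder (edgeR adjusted p = 1.13e-05, 1.91-fold lower), with 0.05 for IL-4 (0.9). Remainder and difference differed by -0.02 (0.932). Per kilobase Lipa fell from rank 62 of all tested genes to rank 158 in the remainder. Both calls held under every alternative run.

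Gm2a (the activator that presents ganglioside GM2 to hexosaminidase) gave 415, 479.7 and 454 CPM in untreated cells, 590.4, 574 and 549 CPM with IL-4, 631, 677 and 669.7 CPM in the difference and 745, 683 and 730.3 CPM in the remainder. The groups did not overlap and stood in that order. Gm2a rose by a log2 fold change of 0.34 ± 0.08 with IL-4 (edgeR adjusted p = 0.0211), 0.55 ± 0.08 in the difference (0.000115) and 0.68 ± 0.08 in the remainder (1.43e-05). The IL-4 call was lost without mouse 1 (0.136), mouse 2 (0.0785) or mouse 3 (0.332), and without untreated mouse 1 or 3 or IL-4 mouse 1 or 2 (0.0605 to 0.0864).

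Psap gave 20682, 24889 and 23862 CPM in untreated cells, 32922, 25984 and 27738 CPM with IL-4, 24725, 27072 and 28855 CPM in the difference and 33249.7, 27212 and 33431 CPM in the remainder. IL-4 and the remainder lay above all untreated samples, and the difference overlapped them. Against untreated cells, Psap passed the test neither with IL-4 nor in the difference. The remainder was higher by 0.44 ± 0.12 (edgeR adjusted p = 0.0195). That call was lost without mouse 1 (0.0912) or mouse 3 (0.241), without the untreated or remainder library of mouse 1 (0.0659 and 0.059) and without the remainder library of mouse 3 (0.0664). Ppt1 (palmitoyl-protein thioesterase) gave 245, 253 and 249.8 CPM in untreated cells, 339.7, 325 and 337 CPM in the difference and 268, 278 and 289 CPM in the remainder. The difference lay above the other groups, by 0.42 ± 0.08 over untreated cells (edgeR adjusted p = 0.000941), while the remainder against the difference was -0.26 (0.062). Smpd1 (acid sphingomyelinase) came to 0.27 and 0.33 in the difference and the remainder (0.111 and 0.0511).

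Of the 6 membrane and cholesterol-export genes, 0 were called with IL-4, against 3.4% of all genes. In the difference 2 of the 6 were higher (33.3%, against 23.2% of all genes). In the remainder 3 of the 6 were higher, against 25.3% of all genes called, and none fell in any of these comparisons. With 6 genes these shares rest on few calls. Npc2 (the lumen protein that hands cholesterol to NPC1) gave 2170.0, 2534 and 2263 CPM in untreated cells, 3153, 2726 and 2529 CPM with IL-4, 2933, 3114 and 3134 CPM in the difference and 4229, 3340.2 and 3607 CPM in the remainder. Both parts lay above all untreated samples, by 0.40 ± 0.11 (edgeR adjusted p = 0.0163) and 0.68 ± 0.11 (0.000328). The first of these calls was lost without mouse 3 (0.201) and without untreated mouse 1 or difference mouse 2 or 3 (0.054 to 0.0554). Npc1 (the membrane cholesterol exporter) was higher by 0.30 ± 0.07 in the remainder (0.00594, and 0.115 without mouse 3) and stood at 0.06 in the difference.

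Lamp1 (the main glycoprotein of the lysosomal membrane) gave 2400.3, 2860.0 and 2776 CPM in untreated cells, 3407, 3008 and 2944 CPM with IL-4, 3196, 3225 and 3392 CPM in the difference and 3671, 3326 and 3553 CPM in the remainder. All treated samples lay above the untreated ones. The log2 fold changes were 0.29 in the difference and 0.39 in the remainder (edgeR adjusted p = 0.0354 and 0.00579), with 0.22 for IL-4 (0.275). Without mouse 3 both calls were lost (0.251 and 0.108), and that in the difference was also lost without mouse 1 (0.0862) or mouse 2 (0.0911) and with the mouse as a block (0.068), and without untreated mouse 1, IL-4 mouse 2 or any difference library (0.0536 to 0.118). Lamp2, Cd63 (a tetraspanin) and Mcoln1 (the calcium channel mucolipin 1) ranged from -0.11 to 0.28 in the 3 comparisons with untreated cells, and none passed. Cd63 shares 11% of its 50-base stretches with a pseudogene.

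Tfeb gave 92.1, 108 and 87.7 CPM in untreated cells, 129, 115 and 113 CPM with IL-4, 69.9, 84.3 and 75.2 CPM in the difference and 102, 82.2 and 95.1 CPM in the remainder. The IL-4 samples lay above and the difference below all untreated samples, and the remainder overlapped the untreated samples. The difference was lower by -0.33 ± 0.11 (edgeR adjusted p = 0.0367), a call lost without mouse 1 (0.115) or mouse 3 (0.163), with the mouse as a block (0.0587) and without untreated mouse 1 or 2, IL-4 mouse 2, difference mouse 1 or 3 or remainder mouse 3 (0.0503 to 0.147). IL-4 gave 0.31 (0.156) and the remainder -0.04 (0.803). Tfe3 gave 216, 254 and 232 CPM in untreated cells, 257, 254 and 246 CPM with IL-4, 225, 223 and 223 CPM in the difference and 233, 216 and 229.8 CPM in the remainder. Its groups overlapped except that the difference and remainder lay below the IL-4 samples, and none of its comparisons with untreated cells passed (edgeR adjusted p = 0.553, 0.549 and 0.653). RNA levels do not show where these proteins were in the cell.

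Of the 5 V0 genes of the pump, 2 rose with IL-4 (40.0%, against 3.4% of all genes). In the difference 2 fell (40.0%, against 23.2%), and in the remainder 1 rose (20.0%, against 25.3%). The median log2 fold change of the V0 genes was 0.02 with IL-4 and -0.19 in the difference. Atp6v0d2 (the d2 isoform of the V0 stalk subunit, enriched in osteoclasts and some macrophages; chr4:19876841-19922605, minus strand) gave 31.0, 32.1 and 35.6 CPM in untreated cells and 142, 165 and 148 CPM with IL-4. It gave 17.1, 18.3 and 14.8 CPM in the difference and 52.5, 91.8 and 57.6 CPM in the remainder. No 2 groups overlapped, and they stood in the order difference, untreated, remainder, IL-4. Against untreated cells its log2 fold change was 2.21 ± 0.17 with IL-4 (edgeR adjusted p = 4.11e-06, 4.61-fold), -0.97 ± 0.18 in the difference (0.00111, and 0.0549 without mouse 3) and 1.03 ± 0.17 in the remainder (0.000369). The remainder exceeded the difference by 2.01 ± 0.18 (edgeR adjusted p = 1.36e-05, 4.02-fold). Its counts were 203 to 2582 a library.

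Taken from the 2 deposited columns without resolving the parts, the Wnt3a column gave 0.022 for Atp6v0d2 in place of -0.97, its call in the Wnt3a+IL4 column was lost (edgeR adjusted p = 0.181), and no member was called between the columns. Against the IL-4 samples, a comparison added after the data were seen, Atp6v0d2 was lower by -3.18 ± 0.18 in the difference (edgeR adjusted p = 2.28e-08, 9.07-fold lower) and by -1.17 ± 0.16 in the remainder (0.000121, 2.25-fold lower).

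Atp6v0d1, which encodes the d1 isoform of the same subunit, did not pass any test. It gave 254, 293 and 265 CPM in untreated cells, 296, 272 and 256 CPM with IL-4, 268, 266 and 290.3 CPM in the difference and 335, 251 and 296 CPM in the remainder. All 4 groups overlapped, and the log2 fold changes were 0.02, 0.02 and 0.12 (edgeR adjusted p = 0.952, 0.901 and 0.417). Per kilobase of exon, Atp6v0d2 made up 7.46% ± 0.70 (SD, n = 3) of the 2 d transcripts in untreated cells, 26.8% ± 2.44 with IL-4, 3.87% ± 0.56 in the difference and 13.4% ± 5.33 in the remainder. The remainder ran from 9.38% in mouse 1 to 19.4% in mouse 2, still above every untreated sample (6.75% to 8.15%).

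Atp6v0a1 (the a1 isoform of the proton-channel subunit; chr11:101009452-101063719, plus strand) had the next largest changes among pump genes. It gave 330.2, 374 and 369 CPM in untreated cells, 509.7, 559 and 539.6 CPM with IL-4, 192, 195 and 204 CPM in the difference and 322, 280.0 and 343 CPM in the remainder. IL-4 lay above and the difference below all other samples, and the remainder overlapped the untreated samples. The log2 fold change was 0.58 ± 0.09 with IL-4 (edgeR adjusted p = 0.00101, and 0.0793 without mouse 3) and -0.86 ± 0.09 in the difference (5.64e-06, 1.82-fold lower). In the remainder it was -0.18 (0.135). The remainder exceeded the difference by 0.68 ± 0.09 (edgeR adjusted p = 0.000295, 1.60-fold), a call lost without mouse 3 (0.0595). Of the a1, a2 and Tcirg1 (a3) transcripts per kilobase, Atp6v0a1 made up 20.9% ± 2.68 in untreated cells, 28.0% ± 0.81 with IL-4, 12.9% ± 0.50 in the difference and 18.3% ± 1.35 in the remainder.

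**Figure D4:**
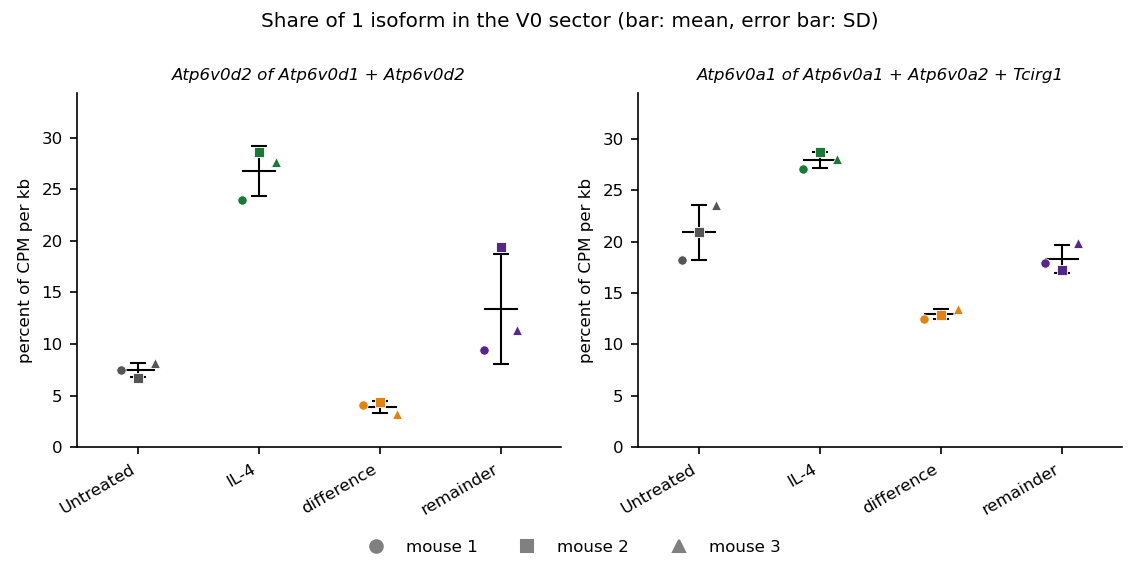
Share in percent (y axis) of Atp6v0d2 among the 2 d-subunit transcripts and of Atp6v0a1 among the 3 a-subunit transcripts, per kilobase of exon, in each sample (points by mouse), with the mean as a bar and the SD as error bar (n = 3). Both shares are highest with IL-4 (means 26.8% and 28.0%) and lowest in the difference (3.87% and 12.9%).

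Atp6v0b (a proteolipid of the channel ring), the most abundant V0 gene by mean CPM, gave 455, 459.8 and 391 CPM in untreated cells, 444, 422 and 399 CPM with IL-4, 378, 415 and 445 CPM in the difference and 453, 364 and 406 CPM in the remainder. All groups overlapped, with log2 fold changes of -0.05 to -0.09 against untreated cells, none called. Atp6v0c (the other proteolipid) came to -0.39 with IL-4 (edgeR adjusted p = 0.152) and shares 10.8% of its 50-base stretches with a pseudogene.

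Of the 6 V1 genes, 1 passed in the comparisons with untreated cells. That was 16.7% with IL-4 and in the difference, against 3.4% and 23.2% of all genes. In the remainder 0 passed, against 25.3% of all genes. Atp6v1b2 (the B2 subunit of the ATP-cleaving ring) gave 774, 855 and 826 CPM in untreated cells, 1109, 1108 and 954 CPM with IL-4, 634, 683 and 719 CPM in the difference and 763, 691 and 764 CPM in the remainder. IL-4 lay above and the difference below all untreated samples. The log2 fold changes were 0.37 ± 0.09 with IL-4 (edgeR adjusted p = 0.028) and -0.27 in the difference (0.0345). With the mouse as a block these came to adjusted p of 0.0602 and 0.0619. The IL-4 call was also lost without mouse 1, 2 or 3 (0.172, 0.153 and 0.214) and without untreated mouse 1 or 3 or IL-4 mouse 1 or 2 (0.0786 to 0.135), and the call in the difference without mouse 1, 2 or 3 (0.0871, 0.15 and 0.149) and without untreated mouse 2 or 3 or difference mouse 1 or 2 (0.0675 to 0.102).

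The other V1 subunits Atp6v1a, Atp6v1c1, Atp6v1d, Atp6v1e1 and Atp6v1h stayed between -0.16 and 0.22 on the log2 scale against untreated cells, none called. Of the accessory genes, Atp6ap1 gave 670.1, 744 and 704 CPM in untreated cells, 747, 741 and 654 CPM with IL-4, 733, 744 and 747 CPM in the difference and 806, 696 and 757 CPM in the remainder. Its groups overlapped, and neither it nor Atp6ap2 (the prorenin receptor) was called, with log2 fold changes of 0.01 to 0.09.

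With the 2 parts pooled against the 2 groups without Wnt3a, 32.6% of all genes were called (16.5% higher, 16.1% lower), and 18 members rose and 7 fell (54.3%). Without mouse 3 the count was 6 higher and 5 lower. This comparison adds no new samples. Lipa came to -0.94 (edgeR adjusted p = 1.86e-07), Ctsk to 1.14, Ctsz to 0.77 and Ctsc to 0.73. Atp6v0d2 came to -1.07 and Atp6v0a1 to -0.81, while for Atp6v0d2 the 2 parts lay on different sides of the untreated level. Of the V-ATPase genes 0 rose and 4 fell (30.8%, near the 32.6% of all genes). The added one was Atp6v1c1 (-0.16), whose call ended without mouse 1, 2 or 3 (0.202, 0.114 and 0.101) and with the mouse as a block (adjusted p = 0.0616). The calls of Ctsd (0.0746), Lgmn (0.0597) and Glb1 (0.0569) also ended with it.

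Against the IL-4 samples, the difference called 20.3% of all genes (10.0% higher, 10.3% lower) and the remainder 20.3% (10.6% higher, 9.67% lower), both comparisons added after the data were seen. Of the members, 3 were higher and 7 lower in the difference (21.7%) and 9 higher and 5 lower in the remainder (30.4%). Without mouse 3 these came to 1 higher and 5 lower, and 2 higher and 4 lower. In the difference the counts rose to 11 and 6 without mouse 1, and to 9 and 7 without the remainder library of mouse 2. Lipa, Atp6v0d2, Atp6v0a1, Atp6v1b2 and Tfeb were lower in both. Atp6v0a1 was lower by -1.44 ± 0.09 and -0.77 ± 0.09 (edgeR adjusted p = 4.05e-08 and 1.71e-05), Atp6v1b2 by -0.64 ± 0.09 and -0.52 (7.77e-05 and 0.000578), and Tfeb by -0.64 ± 0.11 and -0.35 (0.000476 and 0.0278). The Tfeb call in the remainder was lost without mouse 1, 2 or 3 (0.0578, 0.0701 and 0.165), without any IL-4 library (0.0528 to 0.11) and without remainder mouse 2 or 3 (0.0836 and 0.0764). With the mouse as a block, the calls of Ctsb in the difference (0.0957) and Gla in the remainder (0.0591) ended, and Ctsk passed in the difference, higher by 0.67 (edgeR adjusted p = 0.0266).

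The change from untreated to IL-4 and the change from the difference to the remainder share no library. Across the 46 members the log2 fold changes of these 2 comparisons had r = 0.88 and rho = 0.63, and r = 0.59 without Atp6v0d2. Across all tested genes r was 0.335. The sign was the same for 35 of 46 members (76.1%), 30 higher and 5 lower in both, against 55.7% of all tested genes. Genes are not independent replicates, and these values are a description. Over genes, the log2 fold change of the remainder against the difference went with GC content at r = 0.325, against 0.13 or less in size for the other comparisons, and the part of this in the result was not tested.

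**Figure D5:**
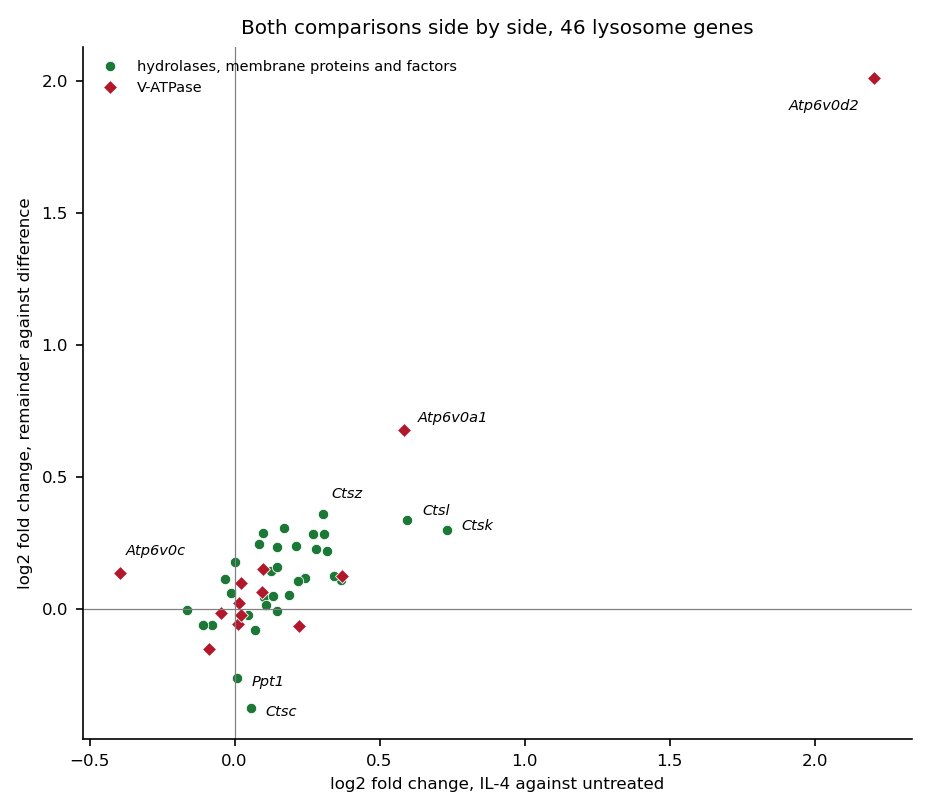
Each point is 1 of the 46 members, with its log2 fold change of IL-4 against untreated cells on the x axis and of the remainder against the difference on the y axis, with diamonds for V-ATPase genes and circles for the rest. Atp6v0d2 stands far out on both axes (2.21 and 2.01), and 30 of 46 members lie above 0 on both.

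Lysosomal genes outside the 46 came from lists of 93 genes, of which 89 were tested. With IL-4, 4 were called higher and 0 lower (4.49%, near the 3.4% of all genes). In the difference 21 were higher and 14 lower (39.3%, against 23.2%), and in the remainder 28 higher and 11 lower (43.8%, against 25.3%). Between the parts 6 were higher and 1 lower (7.87%, against 5.25%). Without mouse 3 the counts were 0, 14, 17 and 1 in all, and without mouse 2 that in the difference was 22. With IL-4 the count was 1 or 2 without untreated mouse 2 or 3, difference mouse 2 or 3 or any IL-4 library. Between the parts it was 4 without mouse 1, 13 without remainder mouse 2, and 1 to 4 without any other library of the 2 parts. The median log2 fold change of the 89 was 0.03 with IL-4 and 0.00 in the difference. Of 29 tested further hydrolases, 11 rose and 2 fell in the difference (44.8%) and 14 rose and 2 fell in the remainder (55.2%). Acp5 (tartrate-resistant acid phosphatase) gave 23.4, 35.1 and 32.2 CPM in untreated cells, 43.8, 38.0 and 33.5 CPM with IL-4, 96.8, 161 and 129 CPM in the difference and 121, 153 and 112 CPM in the remainder. Both parts lay above all samples without Wnt3a, each at a log2 fold change of 2.09 (edgeR adjusted p = 2.54e-06 and 2.14e-06). The phospholipase Pla2g15 was higher in the remainder than in the difference by 0.48 (edgeR adjusted p = 0.0207), a call lost without mouse 3 (0.222), without difference library 1 or 2 (0.07 and 0.0539) and without remainder library 1 or 3 (0.073 and 0.0775).

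Cystatins are the inhibitors of cysteine cathepsins. Of the 3 tested, 1 rose with IL-4 (33.3%, against 3.4% of all genes). In the difference 2 rose and 1 fell (100%, against 23.2%), and in the remainder 2 rose and 0 fell (66.7%, against 25.3%). The cystatin that fell was lower by -0.42 in the difference and stood at -0.19 in the remainder, not called. Cst7 (cystatin F, which holds back cathepsin C and related proteases) had the largest log2 fold change of these 89 genes with IL-4 and in both parts. It gave 1.88, 2.25 and 2.07 CPM in untreated cells, 5.03, 3.83 and 4.47 CPM with IL-4, 24.3, 25.8 and 24.0 CPM in the difference and 70.7, 70.9 and 64.1 CPM in the remainder. The 4 groups did not overlap. The log2 fold change was 1.11 with IL-4 (edgeR adjusted p = 0.000395, and 0.052 without mouse 3), 3.58 for the difference (5.39e-10) and 5.05 for the remainder (7.35e-12). The remainder exceeded the difference by 1.47 (1.12e-06). Cstb (cystatin B) was higher by 0.42 and 0.49 in the difference and the remainder, and both calls were lost without mouse 3 (0.161 and 0.0504).

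Of 24 further membrane proteins and transporters, 4 rose and 6 fell in the difference (41.7%, against 23.2% of all genes). In the remainder 6 rose and 3 fell (37.5%, against 25.3%). Mcoln2 (mucolipin 2) gave 51.1, 49.9 and 48.0 CPM in untreated cells, 60.4, 52.5 and 50.6 CPM with IL-4, 101, 109 and 114 CPM in the difference and 125, 134 and 125 CPM in the remainder. It rose by 1.12 (edgeR adjusted p = 3.19e-07) and 1.37 (3.75e-08), with both parts above every other sample, whereas Mcoln3 (mucolipin 3) fell by -1.23 in the remainder (2.68e-05). Of the 7 further V-ATPase genes tested, 0 rose and 1 fell in the difference (14.3%), and 2 rose and 1 fell in the remainder (42.9%). Of the 11 genes of enzyme delivery and sorting, 4 rose and 2 fell in the difference (54.5%) and 4 rose and 3 fell in the remainder (63.6%). Among them was Sort1 (sortilin), lower by -0.58 in the remainder (0.00013).

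Of 15 genes of Mitf and nutrient sensing, 1 rose with IL-4 (6.67%, against 3.4% of all genes). In each part 2 fell (13.3%), a share below the 23.2% and 25.3% of all genes. Those that fell were Flcn and Rraga in the difference and Fnip2 and Rragc in the remainder. The calls of Rraga (0.217), Fnip2 (0.078) and Rragc (0.102) were lost without mouse 3, and also without mouse 2 for Rraga (0.0679) and without mouse 1 for Fnip2 (0.116) and Rragc (0.088). The gene that rose was Mitf, which is related to Tfeb: 63.0, 42.3 and 59.9 CPM in untreated cells against 92.8, 86.5 and 93.9 CPM with IL-4, without overlap. Its log2 fold change was 0.72 (edgeR adjusted p = 0.029), and the call was lost with the mouse as a block (0.0604), without mouse 3 (0.321), and without untreated mouse 2 or 3 or any IL-4 library (0.0687 to 0.115).

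Marker genes of other cells moved with the groups. The 8 osteoclast markers, 6 of them tested and Calcr and Oscar at 3 counts or fewer in every library, summed to 120 to 149 CPM in untreated cells, 164 to 188 CPM with IL-4, 196 to 264 CPM in the difference and 241 to 269 CPM in the remainder. Acp5, which belongs to both this list and the hydrolases, made up much of these sums in the parts. Of the 6 tested, 3 were called higher and 0 lower with IL-4, 2 higher and 2 lower in the difference, and 3 higher and 0 lower in the remainder. Among them Dcstamp (a cell fusion protein) was higher by 3.26 with IL-4, 2.10 in the difference and 3.67 in the remainder. Itgb3 (integrin β3) was higher by 1.33 with IL-4, lower by -1.77 in the difference, and again higher by 0.89 for the remainder, with the calls in the parts lost in the columns as deposited (edgeR adjusted p = 0.303 and 0.76). Ocstamp (another fusion protein) was at 0.125 to 0.45 CPM in untreated cells, 0.938 to 1.15 CPM with IL-4, 0 to 0.0611 CPM in the difference and 0.0615 to 0.248 CPM in the remainder. These levels were near the floor, and only the IL-4 libraries could bring Ocstamp past the filter of 10 counts in 3 samples. The call of Ocstamp with IL-4 was therefore tied to that filter, and its call in the difference set 2 groups below it against each other. Both are included in the counts above and add no support. Its calls with IL-4 and in the difference (edgeR adjusted p = 0.0299 and 0.0362) were lost without mouse 1 (0.166 and 0.116) or mouse 3 (0.361 and 0.144), and that in the difference also without mouse 2 (0.109). Single libraries that ended them were untreated mice 1 and 3 and any IL-4 library for IL-4 (0.0701 to 0.132), and untreated mouse 2 and difference mice 1 and 3 for the difference (0.0992 to 0.14). Mmp9 and Nfatc1 were not called. The 6 dendritic cell markers, 3 of them tested, summed to 1.54 to 2.31, 2.49 to 3.54, 5.74 to 10.4 and 11.2 to 23.5 CPM in the same order of groups. Of the 3, 0 were called with IL-4. In the difference 2 were higher (66.7%, against 23.2% of all genes), and in the remainder 3 were higher (100%, against 25.3%). The 6 together were near the floor in untreated cells. The parts alone could therefore bring such a gene past the filter of 10 counts in 3 samples. Calls of this kind are tied to that filter and add no support. The 8 neutrophil markers, 6 of them tested and Ly6g at 3 counts or fewer, summed to 48.9 to 61.2, 64.7 to 75.2, 35.7 to 56.5 and 32.0 to 36.3 CPM. Of these 6, 0 were called with IL-4. In the difference 1 was lower (16.7%, against 23.2% of all genes), and in the remainder 4 were lower (66.7%, against 25.3%). The part of these cells in the results on Ctsk, Atp6v0d2 and Ctsc was not tested.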

How the data were processed

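The authors deposited 1 table of raw gene counts, made per the labels and the study's methods with FastQC 0.11.7, Trimmomatic 0.36, STAR 2.6.0 (mm10), SAMtools 1.9 and HTSeq 0.11.1. Whether strand was used in counting is not given in the sources used here. For each mouse, the Wnt3a and Wnt3a+IL4 columns were resolved into the difference and the remainder, which took the place of the 2 columns. The 12421 genes that reached 10 counts in 3 or more of the 12 samples were scaled by TMM factors and fitted in 1 edgeR 4.0.16 quasi-likelihood model of 4 groups without a mouse term (R 4.3.3). P-values were two-sided and Benjamini-Hochberg adjusted over all 12421 genes, with a threshold of 0.05. CPM used TMM-scaled library totals. Shares of all counts used unscaled totals. An error given with a log2 fold change is a standard error. Of 48526 rows, 48058 had a symbol in GENCODE M21 or the gene name tables.

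The 5 comparisons were IL-4, the difference and the remainder against untreated cells, the remainder against the difference, and the mean of both parts against the mean of untreated and IL-4 samples. A further 2, each part against IL-4, were added after the data were seen. The members and the lists were chosen with earlier results of these data known. Values in every sample were given for members called past 1 in size on the log2 scale, for Tfeb, Tfe3 and both d subunits, for the most abundant member of each role and for the largest changes in a role. Of each other list the 2 called genes with the largest change could be named, and some are not reported here.

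Samples with the same mouse number came from the same animal, so the numbers pair the samples. After subtracting group means, pairs of samples of 1 mouse correlated with r from -0.63 to 0.57, and 6 of 18 pairs were over 0.1. Alternatives were DESeq2 1.42.0, its size factors, library totals, 2 other filters on low counts, fits of only the groups compared, the columns as deposited, the mouse as a block, each mouse or library left out, and, added later, a correction for GC content. The fitting was checked on simulated counts.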

Additional observations from a re-analysis of the deposited data

Results flagged for a closer look

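For 3 members the change from untreated cells differed between the difference and the remainder, by the test of the remainder against the difference itself in edgeR. Atp6v0d2 differed by 2.01 on the log2 scale (adjusted p = 1.36e-05), falling in one part and rising in the other, with no overlap between the parts in 3 mice. Atp6v0a1 differed by 0.68 (adjusted p = 0.000295), with the remainder higher in 3 of 3 mice. Ctsc differed by -0.37 (adjusted p = 0.0308), with the remainder lower in 3 of 3 mice. The number of members called in this comparison was near the share of all genes called.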

How the results depend on the processing

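Of 94 calls of members over 7 comparisons, 40 were kept under every alternative run. Leaving out mouse 3 lost 52 of them. Over the leave-one-out fits, the members called ranged from 1 to 5 with IL-4, 8 to 21 in the difference, 9 to 23 in the remainder, 1 to 10 between the parts, 11 to 26 in the pooled comparison, 6 to 17 for the difference against IL-4 and 6 to 18 for the remainder against IL-4. For the other lysosomal genes these ranges were 0 to 5, 14 to 38, 17 to 42, 1 to 13, 23 to 47, 8 to 27 and 7 to 31. With IL-4, 8 members were called with no filter, 8 with the columns as deposited and 9 with the GC correction, in place of 5. Between the parts, 8 were called with DESeq2, 5 with library totals, 6 with no filter and 7 with the GC correction, in place of 3, and 0 with the columns as deposited. For the difference against IL-4, 16 were called with only the groups compared, 21 with the columns as deposited and 19 with the GC correction, in place of 10. Of the other lysosomal genes, 8 were called with IL-4 with no filter, 7 with the columns as deposited and 9 with the GC correction, in place of 4. Between the parts, 4 of them were called with only the groups compared and 0 with the columns as deposited, in place of 7. The cause of these shifts was not tested. With the columns as deposited, Atp6v0d2 in the Wnt3a column against untreated cells reversed to 0.022. Fitting only the groups compared lost the calls of Atp6v1b2 with IL-4 (adjusted p = 0.0561), of Lgmn and Tfeb in the difference (0.055 and 0.0543) and of Ctsa and Psap in the remainder (0.0585 and 0.072). Library totals lost those of Gla and Glb1 in the difference (0.0858 and 0.0503).

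With the mouse as a block (the pairing by animal), 4, 14, 18, 3, 21 and 13 members were called with IL-4, in the difference, in the remainder, between the parts, in the pooled comparison and for the remainder against IL-4. Of the other lysosomal genes 1, 31, 35, 6 and 42 were called in the first 5. With block and GC correction, 10 members were called with IL-4, 7 between the parts and 20 for the difference against IL-4, and 8 other lysosomal genes with IL-4. Calls of members ended or gained by the block are given beside the results, and it changed no other.

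Library totals in place of TMM gave 17 higher and 11 lower in the pooled comparison (18 and 7), 5 and 10 for the difference against IL-4 (3 and 7) and 10 and 9 for the remainder against IL-4 (9 and 5), where DESeq2 gave 7 and 7 and the groups alone 9 and 7. The median of the members became -0.02 in the difference and 0.01 in the pooled comparison. The pooled comparison was not run with only the groups compared, since it uses all 4. The errors cover only the spread between these 3 animals.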
